A study of Rattus norvegicus with 12 samples.

Results

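The Paneth cell antimicrobial genes described here are Pla2g2a, Defa24, Lyz2, Mmp7, Ang and Defa5 of the rat small intestine. They were taken as all probe sets to which the platform annotation gives 1 of these symbols and no other gene, which were 6 probe sets, 1 per gene, of the 31042 probe sets that were not controls. Expression was measured on arrays of mucosal scrapes in 4 groups of 3 arrays: jejunum of homozygous Belgrade rats (b/b), jejunum of heterozygotes (+/b), b/b duodenum and +/b duodenum. The Belgrade allele b is a recessive mutation of Slc11a2, which encodes the divalent metal transporter DMT1. Homozygotes are known to be anaemic, and the heterozygous comparison animals carry the allele as well. According to the series design each array holds material from 1 group of rats, so the replicate is a group of animals, and the sources used here give no age, sex or diet.

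Paneth cells sit at the base of the crypts of the small intestine and release granules of antimicrobial proteins into the crypt lumen. Their granules hold alpha-defensins, which are small cationic peptides that damage microbial membranes, lysozyme, which cuts the peptidoglycan of bacterial walls, and the secretory phospholipase A2 encoded by Pla2g2a, which attacks bacterial phospholipids. In the mouse, matrilysin (Mmp7) cuts the defensin precursors to their active form, and Wnt signalling is known to sustain the Paneth cell programme. A scrape is a mixed tissue sample, so fewer Paneth cells and less RNA per Paneth cell cannot be told apart in these values.

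Signals are linear intensities per probe set, scaled so that every array has a 2% trimmed mean of 500, and have no absolute unit. Across arrays the median scaled signal lay between 108.4 and 181.5. Deposited values of +/b duodenum replicates 2 and 3 were on a lower overall scale and were multiplied by 9.69 and 3.95. The first b/b duodenum array was the least like the rest: its Spearman correlations with the others had a median of 0.836, against 0.875 to 0.917 for each of the other arrays. The upper end of the signal range moved with the replicate number: the brightest probe set reached 85087 to 145043 on the 4 arrays numbered 1, 48031 to 86074 on those numbered 2 and 30742 to 51250 on those numbered 3.

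Of the 6 probe sets, 5 averaged 100 or more in scaled signal over the 12 arrays and were tested with all other such probe sets, 17694 in all. Defa5 did not. Mmp7 reached that level only through the jejunum, where it was high, so that a segment difference was built into its passing. Pla2g2a, Defa24, Lyz2 and Mmp7 were higher in the jejunum than in the duodenum, by 1.47 to 3.29 on the log2 scale when both genotypes were averaged. For these 4 genes the segments did not overlap within either genotype, as was so for 9.53% of all probe sets in b/b rats and for 6.10% in +/b rats with the jejunum higher. Over all 12 arrays 3 of them, all but Lyz2, did not overlap, against 0.882% of all probe sets. Ang did not follow them, and Defa5 stayed near the bottom of the signal range. The members were chosen with earlier results of these data known, so these shares are a description and no test.

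The proximal promoters of the members that rose are shown because Wnt-responsive TCF/LEF factors are known to bind sites with the core CTTTGA. The RefSeq promoter table (GRCr8, 250 bases before to 50 after the start) held 4 of the 6 members, Pla2g2a, Lyz2, Mmp7 and Ang. In the sequences below, written 5′ to 3′ on the strand of the gene, capitals mark CTTTGA or its reverse complement TCAAAG.
Mmp7, chr8:13132793-13133092, plus strand: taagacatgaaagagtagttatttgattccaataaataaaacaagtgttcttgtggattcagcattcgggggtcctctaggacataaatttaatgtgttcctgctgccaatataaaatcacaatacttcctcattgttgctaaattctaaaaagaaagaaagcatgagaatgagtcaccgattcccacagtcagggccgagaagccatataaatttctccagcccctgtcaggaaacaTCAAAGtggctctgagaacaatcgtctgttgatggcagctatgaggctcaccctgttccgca
Lyz2, chr7:54797962-54798261, minus strand: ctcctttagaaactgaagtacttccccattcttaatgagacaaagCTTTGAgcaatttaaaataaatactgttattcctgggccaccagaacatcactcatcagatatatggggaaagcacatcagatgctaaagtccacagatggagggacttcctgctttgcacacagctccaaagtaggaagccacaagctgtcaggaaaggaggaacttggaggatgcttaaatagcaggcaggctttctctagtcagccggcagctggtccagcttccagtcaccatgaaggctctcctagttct
Pla2g2a, chr5:156359475-156359774, plus strand: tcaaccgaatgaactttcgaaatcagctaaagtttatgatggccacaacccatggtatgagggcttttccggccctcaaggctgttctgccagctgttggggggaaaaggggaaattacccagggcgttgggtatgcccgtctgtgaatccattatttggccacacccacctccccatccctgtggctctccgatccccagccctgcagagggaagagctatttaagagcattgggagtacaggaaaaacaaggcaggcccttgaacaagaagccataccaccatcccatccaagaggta
Mmp7 held 1 match, in the TCAAAG orientation, with its first base at position -12 from the start. Lyz2 held 1 match, in the CTTTGA orientation, at position -205. Pla2g2a and both promoters of Ang held 0 matches in these windows. Of all 33469 promoters of this length, 16.1% held a match on either strand, so a match in 2 of 4 genes is a description of these windows and no test.

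Pla2g2a, the secretory phospholipase A2, had a higher signal in the jejunum. Its scaled signal was 4579.9, 8726 and 2447 in b/b jejunum and 13113, 4949.6 and 3993 in +/b jejunum. It was 841.5, 255.5 and 143.7 in b/b duodenum and 1817, 804.7 and 508.4 in +/b duodenum. Every jejunal array lay above every duodenal array, while the genotypes overlapped within each segment. Averaged over both genotypes, Pla2g2a rose by 3.29 ± 0.45 (SE) on the log2(scaled signal + 16) scale, a 9.79-fold difference (limma, Benjamini-Hochberg adjusted p = 0.0016 over all 17694 probe sets tested). Within b/b rats the difference was 3.79 ± 0.64 (limma adjusted p = 0.0122), with means of 5251 ± 3193 in the jejunum and 413.5 ± 374.8 in the duodenum (SD, n = 3 each). Within +/b rats it was 2.79 ± 0.64 (limma adjusted p = 0.243), with means of 7352 ± 5012 in the jejunum and 1043 ± 686.3 in the duodenum.

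Defa24 encodes an alpha-defensin, which RefSeq also lists under the older names Rd5 and defensin-5. It had 16046, 23386 and 9824 in b/b jejunum and 32351, 17863 and 12885 in +/b jejunum. The duodenal values were 5237, 2343 and 2250.2 in b/b rats and 9260.4, 4103.5 and 3823 in +/b rats. All 6 jejunal arrays were above all 6 duodenal ones, and the genotypes again overlapped. Over both genotypes Defa24 rose by 2.12 ± 0.31 (limma adjusted p = 0.00314), a 4.34-fold difference. The difference was 2.35 ± 0.44 in b/b rats (limma adjusted p = 0.0251) and 1.89 ± 0.44 in +/b rats (limma adjusted p = 0.278). Alpha-defensin genes are close relatives, and how far this probe set reads other members of the family is not known from the files.

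Lyz2, lysozyme, is made by macrophages as well as by Paneth cells. Its signal was 18081, 19855 and 9344 in b/b jejunum and 27013, 15809 and 12235 in +/b jejunum. In the duodenum it was 7733, 4178 and 3217 in b/b rats and 12178, 5172 and 5949 in +/b rats. Within each genotype the segments did not overlap, but the lowest b/b jejunal array lay under the highest +/b duodenal one. Over both genotypes Lyz2 rose by 1.47 ± 0.29, or 2.76-fold (limma adjusted p = 0.0218). It had 1.67 ± 0.42 in b/b rats (limma adjusted p = 0.117) and 1.27 ± 0.42 in +/b rats (limma adjusted p = 0.704). Of the 11 other macrophage and monocyte markers, 9 were tested and 0 passed in the limma fit averaged over genotypes. Their median change was 0.43 with all 9 above 0, against 0.07 and 59.8% above 0 over all probe sets tested. The summed signal of the 11 markers lay between 3096 and 5737 in b/b jejunum and between 3772 and 5242 in +/b jejunum. It lay between 3139 and 3395 in b/b duodenum and between 2821 and 4091 in +/b duodenum, and its part in the Lyz2 result was not tested.

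Mmp7, matrilysin, was dim. It had 97.4, 331.7 and 93.4 in b/b jejunum and 383.4, 233.4 and 214.6 in +/b jejunum. Its duodenal values were 15.8, 3.54 and 13.5 in b/b rats and 10.3, 18.3 and 24.4 in +/b rats. The segments did not overlap, and all 6 duodenal values were at the bottom of the signal range. Over both genotypes Mmp7 rose by 2.86 ± 0.41 (limma adjusted p = 0.0025), an estimate that moved with the pseudocount, to 3.87 with 1 and 1.78 with 64. It had 2.63 ± 0.59 in b/b rats (limma adjusted p = 0.0643) and 3.10 ± 0.59 in +/b rats (limma adjusted p = 0.105). Mmp7 passed the filter only through its jejunal signal, so its segment calls here and below are no separate support for a difference.

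**Figure D1:**
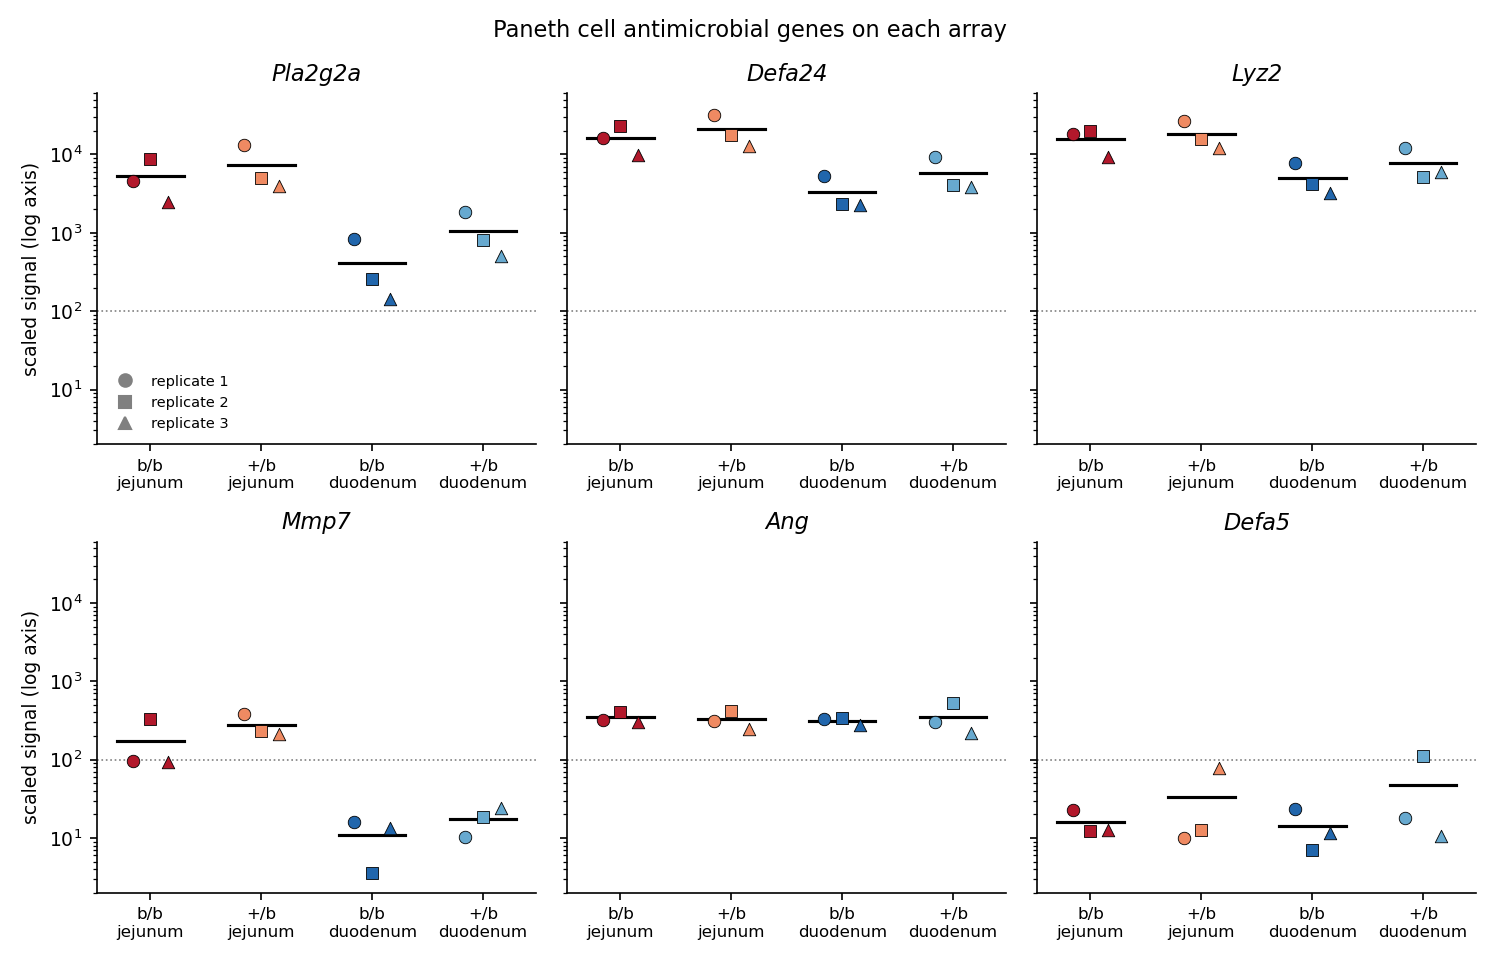
Scaled signal (log axis) of the 6 genes on each array, in b/b jejunum, +/b jejunum, b/b duodenum and +/b duodenum; symbols give the replicate number, black bars the mean of 3 arrays, and the dotted line a signal of 100. Pla2g2a, Defa24 and Mmp7 are separated by segment on all 12 arrays, Ang is level, and Defa5 is above 100 on 1 array.

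Ang, angiogenin, is a secreted ribonuclease of many tissues, of which a relative is a Paneth cell product in the mouse. Its signal was 323.1, 409.6 and 306.4 in b/b jejunum and 310.7, 417.3 and 249.4 in +/b jejunum. It was 325.6, 340.8 and 275.0 in b/b duodenum and 304.7, 533.6 and 219.4 in +/b duodenum. All 4 groups overlapped. Its segment difference averaged over genotypes was 0.04 ± 0.22 (95% interval -0.42 to 0.50, limma adjusted p = 0.964), an interval that does not reach the estimates of the other 4 genes.

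Defa5 was listed at low signal throughout. It had 22.7, 12.4 and 12.5 in b/b jejunum and 9.95, 12.7 and 78.3 in +/b jejunum. It had 23.6, 6.94 and 11.6 in b/b duodenum and 18.1, 112.8 and 10.7 in +/b duodenum, the highest of these being an array whose values were multiplied by 9.69. Only that array exceeded 100, and the mean over the 12 arrays, 27.7, was at the 10.9th percentile of all probe sets. RefSeq lists this rat gene also under the names ratNP-1 and ratNP-2, which are those of rat neutrophil defensins. The values of this probe set therefore do not bear out the label of a Paneth cell gene expressed in these scrapes. All 6 neutrophil markers that had a probe set were below the filter as well, with a summed signal of 63.1 to 304.2 in b/b jejunum, 96.0 to 145.5 in +/b jejunum, 192.5 to 237.5 in b/b duodenum and 70.3 to 346.1 in +/b duodenum.

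Each group of rats gave both segments, and arrays of 1 genotype with the same replicate number were set against each other as pairs, although the labels do not say that the number marks a group of rats. Pla2g2a was higher in the jejunum in 6 of 6 pairs, by 5.44-, 34.2- and 17.0-fold in b/b and by 7.22-, 6.15- and 7.85-fold in +/b rats. Defa24 was higher in 6 of 6, by 3.06-, 9.98- and 4.37-fold in b/b and by 3.49-, 4.35- and 3.37-fold in +/b rats. Lyz2 was higher in 6 of 6, by 2.06- to 4.75-fold. The +/b ratios of Pla2g2a and Defa24 lay close together, and the b/b ratios were more spread, with b/b replicate 2 the highest for each of these 3 genes. Mmp7 was also higher in 6 of 6, by at least 6.17-fold in each, with ratios that rest on dim duodenal values. Ang was higher in 4 of 6, with ratios from 0.782 to 1.20.

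Taking these pairs as a block narrowed the error of the 3 bright genes and changed calls. In +/b rats, where 0 of the 5 genes passed without the block (0.0565% of all probe sets did, 0.0226% as higher), Pla2g2a (2.79 ± 0.35, limma adjusted p = 0.00475), Defa24 (1.89 ± 0.25, limma adjusted p = 0.00612) and Lyz2 (1.27 ± 0.18, limma adjusted p = 0.0121) passed with it, as did 0.486% of all probe sets. In b/b rats, where Pla2g2a and Defa24 passed without the block (0.763% of all probe sets did, 0.345% as higher), Lyz2 also passed with it (1.67 ± 0.18, limma adjusted p = 6.68e-04), as did 2.44% of all probe sets. Mmp7 passed in neither genotype with the block (limma adjusted p = 0.08 in b/b and 0.108 in +/b rats). In the fit averaged over genotypes the same 4 genes passed with and without the block, against 1.40% of all probe sets called without it, 0.610% higher and 0.786% lower, and 4.49% called with it. The block thus raised the share called among all probe sets as well.

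These calls depended on single arrays to different degrees. For Pla2g2a, Defa24 and Mmp7 the averaged call held in all 12 fits that left out 1 array (highest limma adjusted p 0.00909, 0.0164 and 0.0197). Lyz2 lost it in 8 of 12, without replicate 2 or 3 of either duodenal group and without replicate 1 or 2 of either jejunal group (limma adjusted p up to 0.079). Without both arrays deposited on the lower scale, which leaves 1 +/b duodenal array whose spread is taken from the other groups, Defa24 had 1.71 ± 0.36 (limma adjusted p = 0.0566) and Lyz2 1.09 ± 0.34 (limma adjusted p = 0.217), while Pla2g2a and Mmp7 still passed. The same omission gave +/b differences of 1.80 for Pla2g2a, 1.08 for Defa24 and 0.51 for Lyz2. In b/b rats Pla2g2a lost its call without b/b duodenum replicate 2 or 3 or b/b jejunum replicate 2 (limma adjusted p up to 0.0929), and Defa24 without those or b/b jejunum replicate 1 (up to 0.164). Without b/b duodenum replicate 1, the least typical array, all 4 genes passed in b/b rats. The share of all probe sets called in that fit is not given here, so the gain cannot be read as particular to these genes. Lyz2 also lost its averaged call without the intensity trend of the variance (limma adjusted p = 0.0627).

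**Figure D2:**
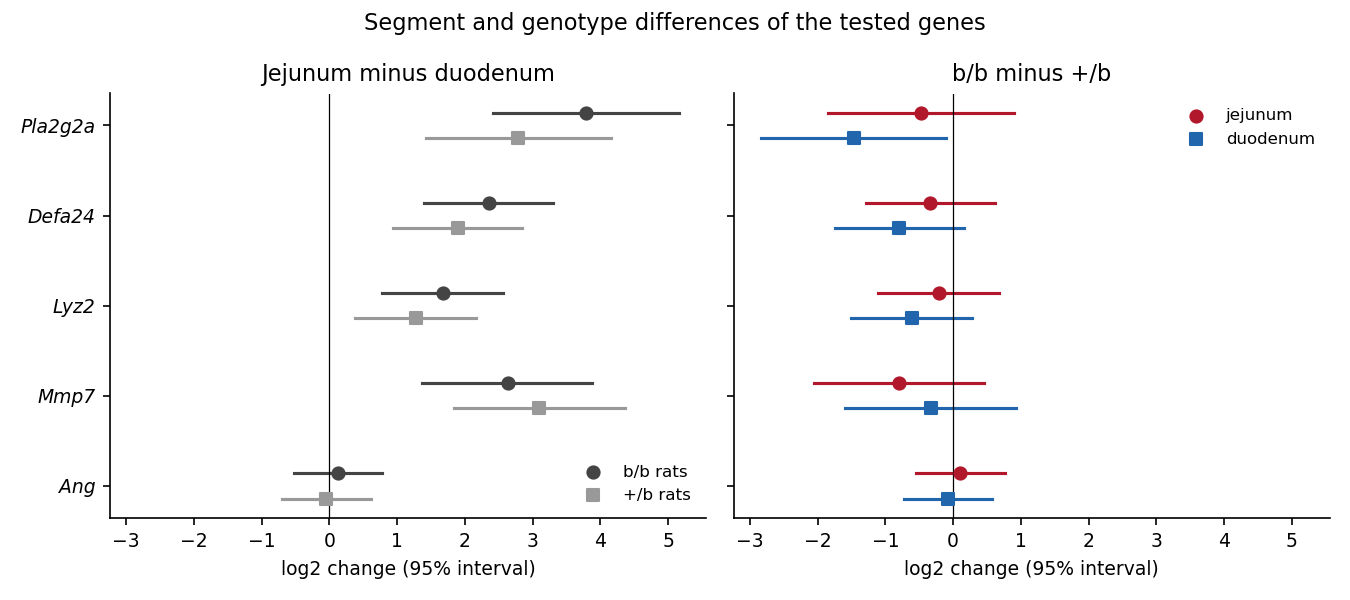
Log2 changes with 95% intervals from the limma fit for the 5 tested genes, jejunum minus duodenum on the left (circles b/b rats, squares +/b rats) and b/b minus +/b on the right (circles jejunum, squares duodenum). The segment intervals of the first 4 genes lie above 0 in both genotypes, those of Ang span 0, and of the genotype intervals only that of Pla2g2a in the duodenum (-2.84 to -0.10) lies on 1 side of 0, without passing after adjustment.

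The genotype comparison asked whether these genes differ between b/b and +/b rats. The estimates of Pla2g2a, Defa24, Lyz2 and Mmp7 were below 0 in both segments, and 0 of the 5 tested genes passed in either limma fit, in which 0.0396% of all probe sets passed in the duodenum and 0.0339% in the jejunum. In the duodenum Pla2g2a had -1.47 ± 0.64 (limma unadjusted p = 0.0373, adjusted p = 0.789), with the b/b mean of 413.5 against 1043 in +/b rats, and 6.17% of all probe sets had an unadjusted p under 0.05. Defa24 had -0.80 ± 0.44, with means of 3277 ± 1698 in b/b and 5729 ± 3062 in +/b duodenum. Lyz2 had -0.61 ± 0.42, with means of 5043 ± 2379 and 7766 ± 3841 in the same order, and Mmp7 had -0.33 ± 0.59 (limma adjusted p from 0.807 to 0.947 for these 3 genes). Leaving out 1 array, these duodenal estimates ran from -2.15 to -0.94 for Pla2g2a, -1.19 to -0.39 for Defa24, -0.97 to -0.24 for Lyz2 and -0.50 to -0.11 for Mmp7. The groups of 3 arrays overlapped for all 5 tested genes in the duodenum and in the jejunum, whereas 8.70% and 7.90% of all probe sets did not overlap there.

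In the jejunum the genotype estimates were nearer to 0 for the 3 bright genes. Pla2g2a had -0.47 ± 0.64, Defa24 -0.34 ± 0.44 and Lyz2 -0.21 ± 0.42. Mmp7 had -0.80 ± 0.59, with means of 174.2 ± 136.4 in b/b and 277.1 ± 92.5 in +/b jejunum (limma adjusted p = 1 for all 4 genes), and 1.34% of all probe sets had an unadjusted p under 0.05. For the 3 bright genes the jejunal direction depended on single arrays: without +/b jejunum replicate 1, the highest jejunal array, Pla2g2a had 0.05, Defa24 0.03 and Lyz2 0.11, and Lyz2 had 0.13 without b/b jejunum replicate 3. Mmp7 stayed below 0 in all 6 fits that left out 1 array (-1.35 to -0.52). Averaged over both segments the genotype estimates were -0.97 ± 0.45 for Pla2g2a (95% interval -1.94 to 0.00), -0.57 ± 0.31 for Defa24 (-1.24 to 0.11), -0.41 ± 0.29 for Lyz2 (-1.05 to 0.22), -0.57 ± 0.41 for Mmp7 (-1.46 to 0.32) and 0.01 ± 0.22 for Ang (-0.45 to 0.48). These intervals leave room for a decrease of the first 4 genes as well as for none.

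The genotype effect in the jejunum minus that in the duodenum was called for 0 of the 5 tested genes in limma, where 0 of 17694 probe sets passed and 1.73% had an unadjusted p under 0.05. This difference was 1.00 ± 0.90 for Pla2g2a, 0.46 ± 0.63 for Defa24, 0.40 ± 0.59 for Lyz2, -0.47 ± 0.83 for Mmp7 and 0.18 ± 0.43 for Ang (limma adjusted p = 1 for each). The order of the group means was the same for Pla2g2a, Defa24, Lyz2 and Mmp7, from +/b jejunum, the highest, through b/b jejunum and +/b duodenum to b/b duodenum, the lowest. Within each segment the arrays of the genotypes overlapped for these genes, and no genotype difference passed after adjustment.

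Pla2g2a, Defa24 and Lyz2 varied together from array to array. Because the segments form separate clusters, Pearson correlations of log2 signals were taken within each, over 6 arrays of both genotypes. Pla2g2a and Defa24 had 0.99 in the jejunum and 0.96 in the duodenum, Pla2g2a and Lyz2 0.95 and 0.94, and Defa24 and Lyz2 0.97 and 0.98. Deviations of the 12 arrays from their group means correlated at 0.96, 0.94 and 0.97 for the same pairs. All genes on an array share its signal range, and after quantile normalisation, which makes the ranges alike, the deviations gave 0.95, 0.94 and 0.96. Mmp7 tracked Pla2g2a, Defa24 and Lyz2 within the jejunum (0.85, 0.81 and 0.68) and less so within the duodenum (0.21, 0.20 and 0.10), where it was dim. Its deviations from the group means correlated with those of the same genes at 0.45, 0.47 and 0.35, and at 0.23, 0.28 and 0.19 after quantile normalisation. Over the 12 arrays Ang (0.11 to 0.19) and Defa5 (-0.09 to 0.04) had correlations near 0 with the 3 bright genes. Over all other probe sets tested the median correlation with Defa24 was 0.12, and 30 of 17693 reached 0.9.

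**Figure D3:**
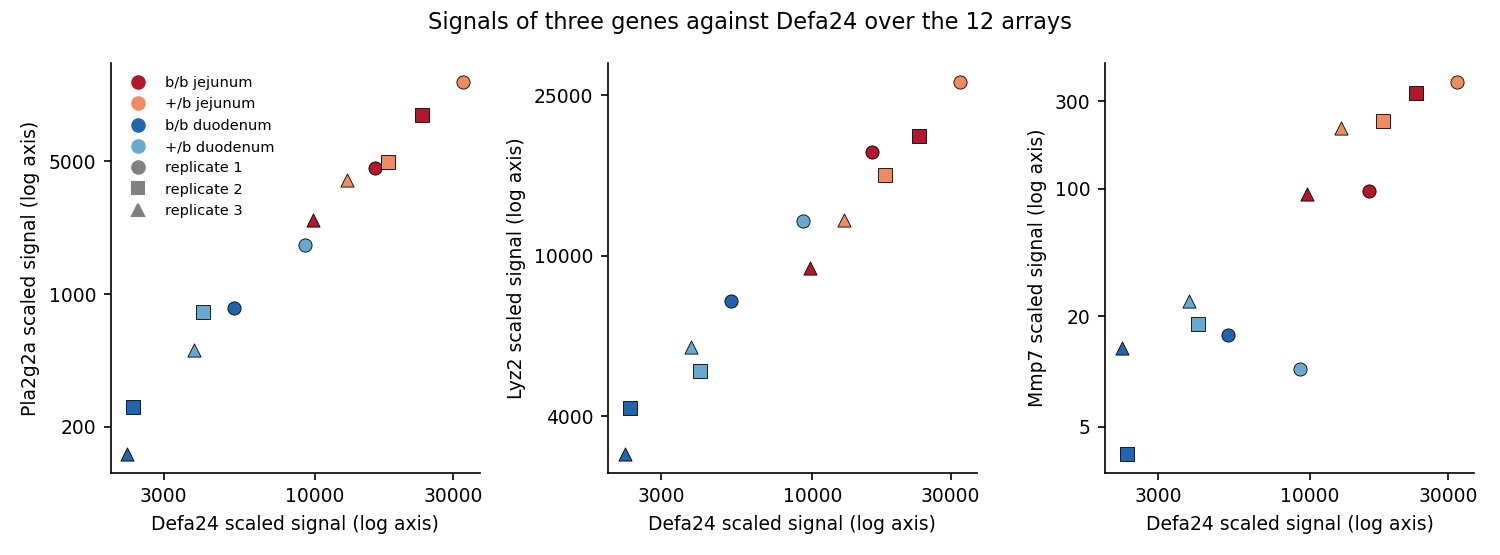
Scaled signals of Pla2g2a, Lyz2 and Mmp7 against Defa24 on the 12 arrays (log axes); colours give the group and symbols the replicate number. Pla2g2a and Lyz2 follow Defa24 within as well as between groups (correlations of their deviations from the group means of 0.96 and 0.97), whereas Mmp7 falls into a jejunal and a duodenal cluster.

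The genes with the most similar profiles were sought among the other single-gene probe sets that passed the filter. Pearson correlation over the 12 arrays was used, as a description. Nearest to Pla2g2a were Defa24 (0.992), Lyz2 (0.976), Aldh1b1 (0.968), Fam8a1 (0.962) and Aqp1 (0.955). Nearest to Defa24 were Pla2g2a, Lyz2, RatNP-3b (0.969), Aldh1b1 (0.951) and Aqp1 (0.945), and Lyz2 had Defa24 (0.985), Pla2g2a, Fam8a1 (0.957), Slfn9 (0.955) and RatNP-3b (0.952). Thus each of the 3 bright members had the other 2 as its nearest genes. Deviations from the group means correlated at 0.94 between RatNP-3b and Defa24, 0.78 between Aldh1b1 and Defa24 and 0.83 between Aqp1 and Defa24. The nearest to Mmp7 were Tmem117 (0.918), Pyy, a peptide of enteroendocrine cells (0.916), RatNP-3b (0.914), Pde4d (0.914) and Acss3 (0.911). Ang was closest to Tmem183a (0.949), Gamt (0.901) and Fastk (0.898), none of which differed between the segments in the averaged limma fit (adjusted p from 0.858 to 0.979), and Defa5 to Surf6 (0.862).

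RatNP-3b is an alpha-defensin gene named after rat neutrophil peptides and lies on the same chromosome as Defa24, Defa5, Np4 and Defa7 in GRCr8. It averaged 3862 ± 2749.5 in b/b jejunum, 4036 ± 1815 in +/b jejunum, 694.5 ± 339.8 in b/b duodenum and 848.5 ± 540.6 in +/b duodenum (SD, n = 3 each). It rose by 2.32 ± 0.36 in the jejunum over both genotypes (limma adjusted p = 0.00456) and had a genotype difference of -0.20 ± 0.51 in each segment (limma adjusted p = 1 in the jejunum and 0.969 in the duodenum). Cross-reading of related defensin transcripts by this probe set was not tested. Np4 averaged 34.5 to 59.8 and Defa7 12.4 to 57.8 over the 4 groups, both below the filter.

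Among 20 other genes named for Paneth cells or alpha-defensins, 7 had a single-gene probe set in the annotation and 5 were tested. RatNP-3b was the 1 called in the averaged segment comparison (0.610% of all probe sets were called higher). The potassium channel gene Kcnn4 had 0.69 ± 0.28 (limma adjusted p = 0.319), and Spink4, a secreted protease inhibitor, -0.42 (limma adjusted p = 0.676). The median of the 5 was 0.01, against 0.07 over all probe sets tested. Of 23 genes of the Paneth cell lineage and of Wnt signalling 17 were tested and 0 passed in limma (median 0.13). The Wnt target Myc had 0.91 ± 0.23 (limma adjusted p = 0.0713), the Notch ligand gene Dll4 0.62 ± 0.22 (limma adjusted p = 0.241) and Ephb3, a receptor that positions Paneth cells in the crypt in the mouse, 0.72 ± 0.30 (limma adjusted p = 0.336). These were the genes of smallest p in the list. Of the 17 genes, 11 were above 0, against 59.8% of all probe sets tested. Axin2 (-0.08 ± 0.24), Tcf7l2 (-0.19 ± 0.19), Ctnnb1 (-0.19 ± 0.33), Lef1 (-0.04 ± 0.26) and Fzd5 (-0.28 ± 0.40) were below 0.

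Among 31 other antimicrobial genes of the epithelium, 13 were tested, 0 were called higher and 2 lower in the jejunum (0.786% of all probe sets were called lower), with a median of -0.16. The 2 were Dmbt1, a mucosal scavenger receptor protein (-1.60 ± 0.36, limma adjusted p = 0.0463), and the chemokine Ccl20 (-1.55 ± 0.32, limma adjusted p = 0.0266). Dmbt1 averaged 4120 ± 2056 in b/b and 6368 ± 3153 in +/b jejunum, against 13941 ± 277.4 in b/b and 17066 ± 10531 in +/b duodenum. Pigr, the receptor that carries IgA across the epithelium, had -0.90 ± 0.23 (limma adjusted p = 0.0864). Rnase4 went the other way, with 0.39 ± 0.12 (limma adjusted p = 0.165), and 6 of the 13 genes were above 0. The C-type lectins Reg3b (0.24 ± 0.45) and Reg3g (-0.20 ± 0.35), which bind bacterial cell walls and were singled out after their values were seen, were not called (limma adjusted p = 0.879 and 0.866). In the genotype comparison of the duodenum 0 of these 13, 0 of the 5 and 0 of the 17 genes passed in limma, and medians were -0.08, -0.13 and -0.05.

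Markers of other cell types were read on the same arrays. For crypt stem and progenitor genes the median was 0.70 for jejunum minus duodenum, with all 7 tested genes above 0, and -0.96 for b/b minus +/b in the duodenum, with all 7 below 0. Over all probe sets tested these medians were 0.07 and -0.05, with 59.8% and 44.5% above 0. In the averaged segment comparison the progenitor gene Cdca7 (0.88 ± 0.19, limma adjusted p = 0.034) and the sodium-potassium-chloride cotransporter gene Slc12a2 (0.94 ± 0.20, limma adjusted p = 0.0278) passed, and in the duodenal genotype comparison 0 did (limma adjusted p = 0.493 for Cdca7, the lowest). Their summed signal was 4658 to 7444 in b/b jejunum, 6688 to 11344 in +/b jejunum, 2840.3 to 3879.8 in b/b duodenum and 3764.5 to 7690.0 in +/b duodenum. The mean log2 signal of this list correlated with Defa24 at 0.15 in deviations from the group means, which leave out segment and genotype differences. Goblet, enterocyte, and lineage and Wnt genes had 0.82, 0.80 and 0.91 (0.75, 0.63 and 0.79 after quantile normalisation). Over the 12 arrays, with the group differences kept, crypt genes had 0.76, goblet 0.40, enterocyte 0.25, and lineage and Wnt genes 0.83. After quantile normalisation these were 0.77, 0.89, 0.52 and 0.81. The part of crypt sampling in the Paneth gene results was not tested. Goblet cell genes, which mark the neighbouring secretory lineage, had a segment median of 0.02 over 7 genes. Enterocyte genes had -0.21 over 8, with 0 called in limma in either list. Of 9 tested enteroendocrine genes (median -0.28), 2 were called higher and 2 lower, against 0.610% and 0.786% of all probe sets. Nts had 3.40 ± 0.40 and Gcg 2.48 ± 0.40 (limma adjusted p = 4.67e-04 and 0.00562). Sct had -0.82 ± 0.14 and Ghrl -1.90 ± 0.34 (limma adjusted p = 0.00851 and 0.00999). Large jejunal rises were thus not particular to the Paneth genes.

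Exocrine pancreas genes were uneven in the duodenum. Their summed signal over 16 genes was 183974 on +/b duodenum replicate 2 and 9213 on b/b duodenum replicate 3, against 1185.0 to 2163.5 on the other 4 duodenal and 1245.7 to 1776.4 on the 6 jejunal arrays. Without +/b duodenum replicate 2 the averaged segment differences were 3.25 for Pla2g2a, 2.03 for Defa24 and 2.88 for Mmp7, with limma adjusted p from 0.00435 to 0.0102, and 1.35 for Lyz2 (limma adjusted p = 0.0546).

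**Figure D4:**
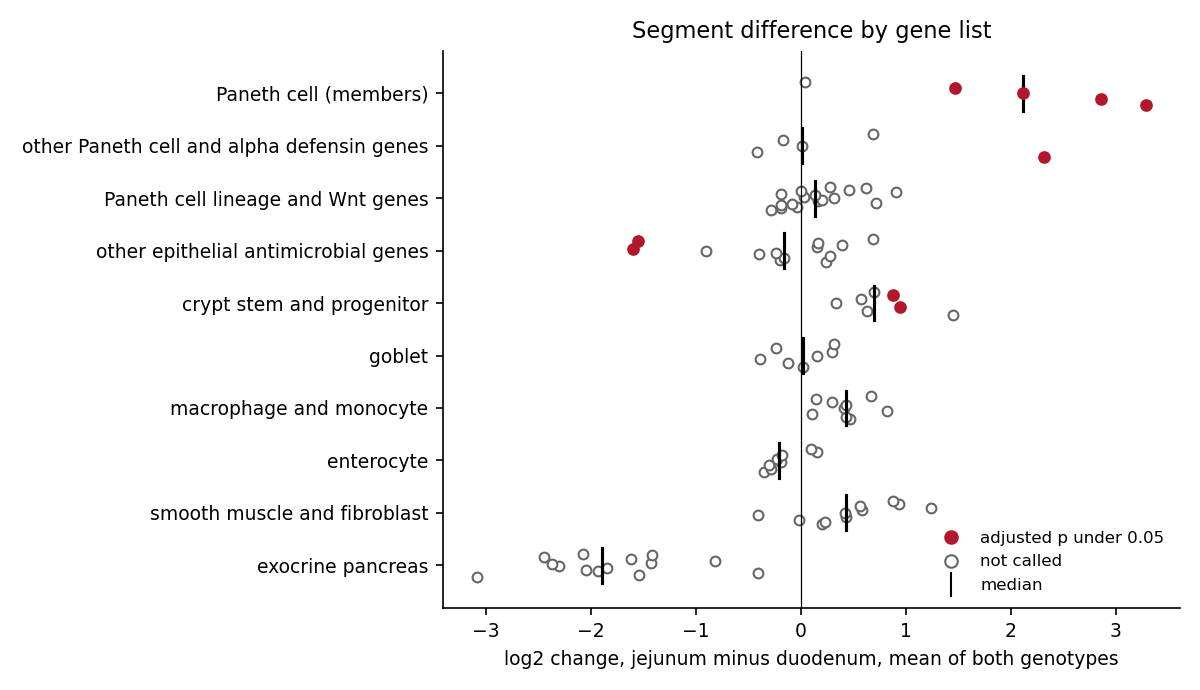
Log2 change, jejunum minus duodenum averaged over genotypes, of every tested gene in 10 gene lists; filled points passed in limma, open points did not, and bars mark list medians. Of the Paneth genes 4 of 5 are filled and lie between 1.47 and 3.29, against 0.610% of all probe sets called higher. The members were chosen with earlier results of these data known, and Mmp7 passed the filter only through the jejunum. Setting these shares side by side is therefore a description and no test. The medians of the other lists shown lie between -1.89 for exocrine pancreas and 0.70 for crypt genes. Enteroendocrine genes, of which Nts and Gcg were also called higher, are not shown.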

How the data were processed

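The deposited values are linear probe set signal intensities of 12 arrays, and MAS5 is named for 10 of them per the submitters' processing notes; these sources give no version or background settings, and detection calls were not used here. Duodenal titles that read +b were taken as +/b. Each array was scaled to a 2% trimmed mean of 500. Of 31099 probe sets, 57 controls were removed, and the 17694 that averaged 100 or more in scaled signal were tested as log2(scaled signal + 16), which understates changes of dim genes. One limma 3.58.1 model (R 4.3.3) with 4 group means over all 12 arrays, eBayes and an intensity trend gave 7 contrasts, with two-sided p-values adjusted by the Benjamini-Hochberg method at a threshold of 0.05. The number of arrays limits the precision. A simulation with independent noise and set segment changes tested only the segment contrasts of the model without a block. It did not cover the genotype or block fits, nor arrays that deviate together by replicate number.

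The series design says that each group of rats gave both tissues. The labels do not say that the replicate number marks a group of rats. Same-numbered jejunal and duodenal arrays deviated together in b/b (correlations of 0.16 to 0.38) and +/b rats (0.19 to 0.28), and were paired by number in an alternative fit. Same-numbered arrays from different rats deviated together as much, b/b duodenum with +/b jejunum at 0.14 to 0.45 and the jejuna of both genotypes at 0.12 to 0.42, while the duodena had -0.06 to 0.16 and +/b duodenum with b/b jejunum 0.03 to 0.26. A shared replicate number and a shared group of rats therefore cannot be told apart in these correlations.

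Members, gene lists and alternatives were chosen with earlier results of these data known. Genes were named by rule: all members, list genes called in the averaged segment comparison, and up to 4 genes of smallest p of some lists. Up to 5 tested probe sets most correlated with each member were named too. Reg3b, Reg3g, Np4, Defa7, Axin2, Tcf7l2, Ctnnb1, Lef1 and Fzd5 were named outside this rule. A gene with several probe sets was represented by the brightest. Promoter sequences are RefSeq's for GRCr8, a build not tied to the array, and are used for sequence only. Alternatives covered the pseudocount, filter, scaling, variance model, array weights, arrays in the fit, replicate blocks and omission of arrays.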

Additional observations from a re-analysis of the deposited data

How the results depend on the processing

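The number of tested member genes called was 0 in each genotype comparison and in the difference of genotype effects under every alternative run. In the averaged segment comparison it was 4, 3 without the intensity trend (Lyz2 lost), 3 to 4 in fits that left out 1 array and 2 without both arrays deposited on a lower scale. In b/b rats it was 2, against 1 without the intensity trend (Mmp7, while Pla2g2a had limma adjusted p = 0.0502), 3 without the filter (Mmp7 added), 3 with quantile normalisation (Lyz2 added), 4 with array weights and 0 to 4 in fits that left out 1 array. In +/b rats it was 0, also in each fit that left out 1 array, and 3 with the numbered pairs of segments as a replicate block. That replicate block gave 3 in b/b rats and 4 in the averaged segment comparison, and with the replicate number as a block in the genotype comparisons Pla2g2a in the duodenum kept -1.47 with an SE of 0.36 (limma adjusted p = 0.23). Under quantile normalisation the averaged segment differences were 3.20 for Pla2g2a, 2.23 for Defa24, 1.59 for Lyz2 and 2.82 for Mmp7, all called. Over all probe sets the b/b segment calls numbered 135 in the model used, 62 with median scaling and 642 with array weights. In fits with a filter the segment counts include Mmp7 wherever it was called, though only its jejunal signal took it past the filter.

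Signs changed for estimates near 0. Ang had -0.04 in the averaged segment comparison under quantile normalisation, 0.00 in the duodenal genotype comparison and 0.07 in the +/b segment comparison with array weights, and 0.04 and 0.06 in these last comparisons without both arrays of lower scale. That omission gave Mmp7 0.00 in the duodenal genotype comparison, and array weights gave it 0.04 in the difference of genotype effects. Leaving out 1 array, the jejunal genotype estimates ran from -0.93 to 0.05 for Pla2g2a, -0.64 to 0.03 for Defa24, -0.46 to 0.13 for Lyz2 and -0.07 to 0.29 for Ang. Ang ran from -0.35 to 0.26 in the duodenal and -0.13 to 0.18 in the averaged genotype comparison. It ran from -0.33 to 0.29 in the +/b and -0.10 to 0.21 in the averaged segment comparison, and from -0.16 to 0.46 in the difference of effects. The cause of these changes was not tested. The precision is limited by 3 arrays per group, and that of Mmp7 and Defa5 also by signals near background.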
